A study of Mus musculus with 6 samples.

Results

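Long intergenic noncoding RNAs (lincRNAs) are transcripts with no known protein product whose genes lie between protein-coding genes. Most are spliced and carry a poly(A) tail, and many are found at low levels and act in the nucleus, as scaffolds of nuclear bodies or at chromatin. Others are host transcripts whose introns or exons give rise to microRNAs or small nucleolar RNAs (snoRNAs), and a few have turned out to encode short proteins. In heart muscle, lincRNAs are known from work on lineage commitment, hypertrophy and the response to infarction.

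The lincRNAs described here were the rows that the deposited table types as lincRNA and whose mean normalized read count over all 6 hearts was at least 20. There were 239 of them, among 1506 lincRNA rows and 26012 genes in all. The mean over all hearts chose them, so their abundance is a description. The 3 members nearest to the threshold were D5Ertd605e at a mean of 20.66, Gm26637 at 20.05 and Gm26526 at 20.01, and the nearest rows left out were Gm10425 at 19.9, Gm13431 at 19.84 and Gm26890 at 19.67. The mean of the control mimic hearts was under 20 in 9 members and the mean of the miR-19a/19b mimic hearts was under 20 in 8, so these members entered through the group in which they were higher.

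RNA was sequenced from ventricular tissue of 6 male C57BL/6 mice, aged 8 weeks at myocardial infarction (MI). All mice had the left anterior descending coronary artery ligated, and the ventricles were taken 4 days later. Control mimic was injected into the muscle of 3 hearts and miR-19a/19b mimics into the other 3, at 10 μg per heart. Mimics are short synthetic duplexes that stand in for a mature microRNA, and the comparison asks which transcripts differ in infarcted hearts given it. No heart without MI and no heart without injection was analysed here, and each library is 1 heart, with muscle, fibroblasts, vessels and infiltrating blood cells together. In such tissue, fewer cells of a type and less RNA per cell cannot be told apart.

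Both miRNAs of the mimic are processed from a lincRNA in this list, Mir17hg, the host transcript of the miR-17-92 cluster. The mature sequences are shown because the seed, bases 2 to 8 in capitals, is what pairs with target RNAs. They are from RefSeq on GRCm38.p6, both on the plus strand.
miR-19a-3p, chr14:115044048-115044070: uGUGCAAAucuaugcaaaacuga
miR-19b-3p, chr14:115044358-115044380: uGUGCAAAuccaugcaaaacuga
They share the seed and differ at 1 base, U11C, counted from 1 at the 5′ end with the base of miR-19a-3p first. The annotated span of Mir17hg (chr14:115042879-115046727) holds 6 hairpins, those of Mir17, Mir18, Mir19a, Mir20a, Mir19b-1 and Mir92-1, all in its exonic sequence. In control mimic replicates 1, 2 and 3, Mir17hg had normalized read counts of 106.1, 106.4 and 122.4, against 90.4, 148.5 and 151.3 for replicates 1, 2 and 3 of the miR-19a/19b mimic group. The groups overlapped, since the lowest and the highest hearts were both given miR-19a/19b mimics (log2 fold change 0.18, SE 0.22, limma unadjusted p = 0.42). The log2 fold change was 0.42 without miR-19a/19b mimic replicate 1 (limma unadjusted p = 0.035, adjusted p = 1), 0.07 without replicate 2 and 0.06 without replicate 3. The poly(A) libraries do not measure the mature miRNAs or the injected mimics.

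The sequence complementary to the seed followed by A, the 8-mer TTTGCACA, was searched on the transcript strand in the GENCODE M21 transcripts of the 236 members found there, together with the 7-mers TTTGCAC and TTGCACA that it contains. An 8-mer was present in 20 members (8.47%), with 28 sites in all, against 10.1% of all tested genes with a transcript sequence. Any of the 3 matches was present in 57 members (24.2%) and in 32.6% of all tested genes, whose longest transcripts had a median of 2787 bases, against 2217.5 in the members. No 8-mer was found in Neat1, Malat1, 1700020I14Rik or H19. The 3 most abundant members with an 8-mer are shown with the 8-mer in capitals and the bases around it, on the transcript strand, together with Gm12295, from the list of RNAs studied in heart muscle, and BC002059, which had the most sites (4).
Meg3, chr12:109559213-109559242, plus strand: tgggctacgggTTTGCACActttggtggtt
Meg3, chr12:109564922-109564951, plus strand: taactaatggcTTTGCACAaccagctttcc
1810058I24Rik, chr6:35262593-35262622, plus strand: tcacttttgttTTTGCACAgagtcatgacg
Gm37494, chr7:39578049-39578078, plus strand: atcattttcttTTTGCACAcctcccccaaa
Gm12295, chr11:65279325-65279354, minus strand: aacataagcttTTTGCACAgtattctctca
BC002059, chr17:16972871-16972900, plus strand: gtggcaaagccTTTGCACAatgtattcacc
These lie in exons of GENCODE M21 transcripts on GRCm38, and a match is a description of letters, not of a bound site.

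Members with an 8-mer were lower as often as higher in the miR-19a/19b mimic hearts. Of the 20, 10 were lower and 10 higher, their median log2 fold change was 0.00, and none had an unadjusted limma p under 0.05. Their 10th and 90th percentiles were −0.38 and 0.19, against −0.34 and 0.38 in the 179 members with no match. The median was 0.08 in the 37 members with only a 7-mer and 0.02 in the 179 with no match. Among members with an 8-mer the log2 fold changes ran from −0.56 in 2810414N06Rik to 0.27 in 2410018L13Rik. BC002059, with its 4 sites, had normalized read counts of 74.1, 62.5 and 97.2 with control mimic and 72.1, 82.5 and 80.4 with miR-19a/19b mimics, and the groups overlapped. Gm15328 was lower in every heart given miR-19a/19b mimics, at 19.4, 33.0 and 25.9 against 37.6, 41.0 and 35.5, with an unadjusted p of 0.064 from limma. It lies outside the rule for named genes and was chosen after its values were seen. Of all genes tested, 5.3% were lower without overlap.

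**Figure D1:**
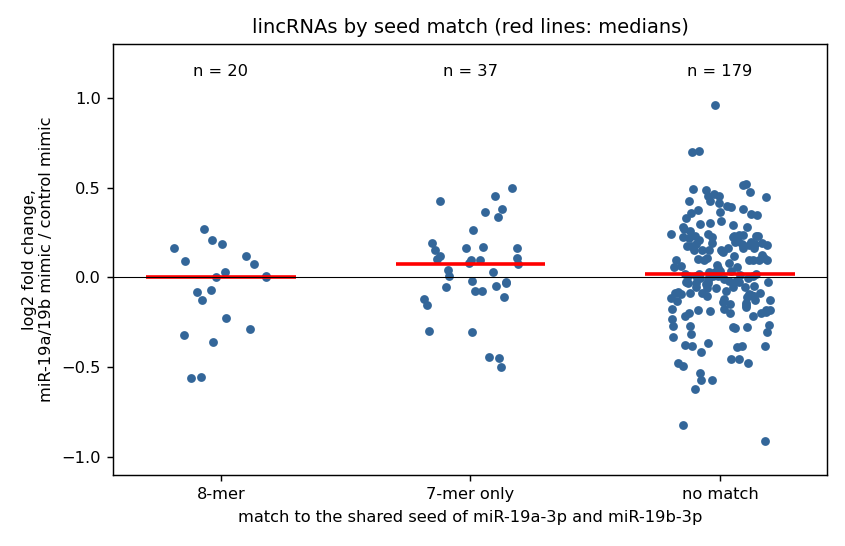
Each point is 1 lincRNA, its vertical position the log2 fold change between miR-19a/19b mimic and control mimic hearts, grouped by its match to the miR-19 seed (8-mer, 7-mer only, no match) with red lines at the medians. The medians of 0.00, 0.08 and 0.02 lie close together, and the most extreme values are in members with no match. Those values, of Gm26637 and Gm27028, belong to members that entered the list only through the group in which they were higher.

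A few RNAs made up most of the lincRNA reads. Neat1 and Malat1 took 52.6% of the members' mean normalized read counts, the 10 most abundant members took 75.2% and the 15 most abundant took 78.1%. Mean counts reached 1000 in 9 members and 100 in 67, and the median member had 47.5. The members held 94.9% of all lincRNA counts, yet only between 0.334% and 0.409% of the reads counted on genes in a heart. Those reads came to between 19398196 and 23645308 per heart, of which 70994 to 88506 fell on members, and the fewest reads on any member in any heart were 9.

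Neat1 is the scaffold of nuclear bodies called paraspeckles. It had the highest counts, with 22535, 21460 and 25013 in the control mimic hearts and 33022, 31222 and 18838 in the miR-19a/19b mimic hearts. Replicates 1 and 2 of the miR-19a/19b mimic group lay above every control heart and replicate 3 below every one. Malat1, an RNA of nuclear speckles encoded next to Neat1 on chromosome 19, had 18842, 16974 and 11420 with control mimic and 17212, 20202 and 17000 with miR-19a/19b mimics. Here the low heart was control mimic replicate 3, and the other 5 hearts lay between 16974 and 20202. Their log2 fold changes were 0.23 for both (SE 0.23 for Neat1 and 0.20 for Malat1), with limma unadjusted p of 0.35 and 0.29. Malat1 had a log2 fold change of 0.02 without control mimic replicate 3, 0.38 without control mimic replicate 1 and 0.15 without miR-19a/19b mimic replicate 2. Neat1 had 0.08, 0.12 and 0.48 without miR-19a/19b mimic replicates 1, 2 and 3. Counted per kilobase of the listed gene length, the order was reversed, with a mean of 2426 for Malat1 and 1220 for Neat1. The listed lengths were 6983 bases for Malat1 and 20771 for Neat1, and which transcript forms the reads came from was not tested. Malat1 shares stretches of at least 150 bases at 95% identity or more with other genes, so some of its reads are uncertain.

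1700020I14Rik, the mouse Cyrano RNA known for triggering decay of miR-7, followed at 4129, 4356 and 4925 with control mimic and 5515, 5466 and 3403 with miR-19a/19b mimics. As in Neat1, miR-19a/19b mimic replicates 1 and 2 lay above every control heart and replicate 3 below every one. Meg3, a maternally expressed RNA of an imprinted cluster on chromosome 12, had 3411, 3066 and 3703 with control mimic and 3730, 3482 and 4394 with miR-19a/19b mimics (log2 fold change 0.19, SE 0.13). Its groups overlapped by a single heart, miR-19a/19b mimic replicate 2. Gm26917 had 2338, 2289 and 1387 against 1531, 2189 and 2741, and its lowest and highest hearts were replicate 3 of each group.

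The next abundant members differed in how tightly the hearts agreed. 1810058I24Rik, a row since found to encode a short mitochondrial protein, had 1484, 1314 and 1371 with control mimic and 1508, 1381 and 1297 with miR-19a/19b mimics. C330006A16Rik had 1093, 1063 and 1045 against 1144, 1051 and 1029. Both had log2 fold changes of 0.00 and 0.01, with SE of 0.10 and 0.09. Gm5532 varied far more, with 1491, 1179 and 1723 against 2379, 2108 and 1001, and AU020206 had 1032, 1087 and 1030 against 751, 727 and 1174. In both of these, miR-19a/19b mimic replicate 3 lay on the opposite side of the control hearts from replicates 1 and 2. The remaining 5 of the 15 most abundant, Gm37494, 5031425E22Rik, 9530082P21Rik, Gpr137b-ps and Dubr, had means between 412 and 567, and their log2 fold changes ran from −0.18 to 0.19. Gm37494 had 522.8, 564.1 and 562.4 against 595, 585.6 and 572.3, and 5031425E22Rik had 449.8, 429.4 and 460.6 against 511.1, 493.8 and 519.5. Both were higher without overlap, with limma unadjusted p of 0.38 and 0.090. Gpr137b-ps is annotated as a transcribed pseudogene in GENCODE M21. It shares a stretch of 672 bases at 99.7% identity with Gpr137b, and exons of 9530082P21Rik overlap those of Kremen2 on the other strand. Reads could therefore be split between these genes.

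**Figure D2:**
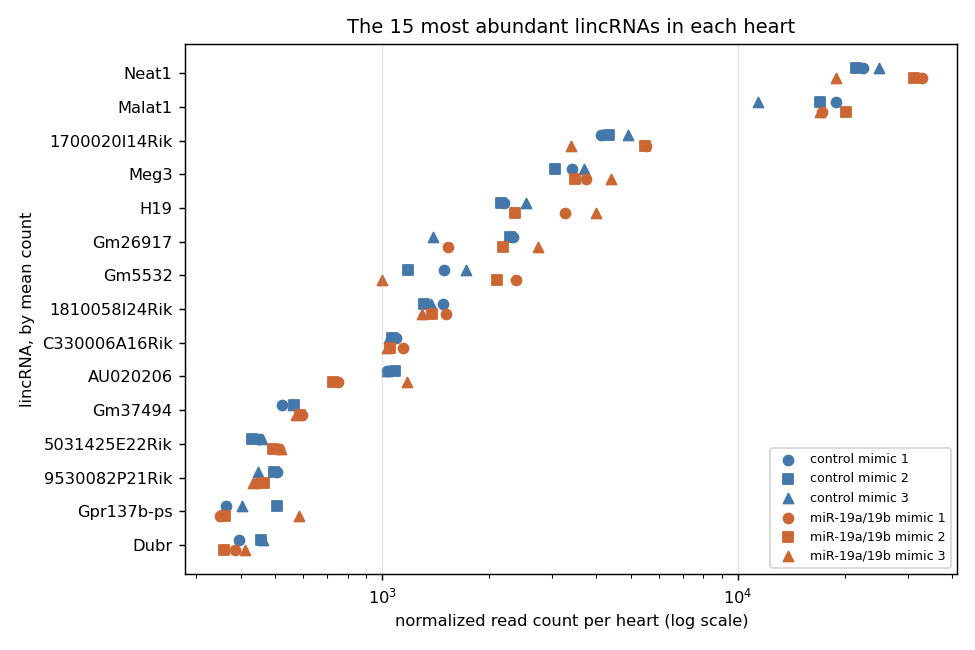
Normalized read counts (horizontal, log scale) of the 15 lincRNAs with the highest means, a point for each of the 3 control mimic hearts (blue) and the 3 miR-19a/19b mimic hearts (orange), with marker shape giving the replicate. Neat1 and Malat1 stand well above the rest, and in Neat1, 1700020I14Rik, Gm5532 and AU020206 the orange triangle, replicate 3, lies apart from the other orange points.

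Per kilobase of listed length, short RNAs moved up the order. H19 had a mean of 1159 normalized counts per kilobase, close to Neat1, and Gm5532, Gm26917, 1700020I14Rik, RP23-455C13.7 and 1810058I24Rik followed with 747, 625, 558, 504 and 500. RP23-455C13.7 is 17th by count, outside the rule for named genes and chosen after its values were seen. It had 393.5, 177.6 and 352.2 with control mimic and 588.5, 586.6 and 305.1 with miR-19a/19b mimics (log2 fold change 0.70, limma unadjusted p = 0.068), and control mimic replicate 2 was the lowest heart.

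The summed count of the members did not separate the groups beyond the spread of the hearts. It was 78465, 74224 and 73855 with control mimic (mean 75515 ± 2562, SD, n = 3) and 90453, 91247 and 74326 with miR-19a/19b mimics (85342 ± 9548), and the exact two-sided permutation test gave p = 0.2. As a share of all reads on genes, members took 0.366%, 0.359% and 0.334% with control mimic and 0.393%, 0.409% and 0.371% with miR-19a/19b mimics. These shares did not overlap, and the exact p of 0.1 is the smallest that 3 hearts against 3 can give. Without Neat1 and Malat1 the sums were 37089, 35790 and 37422 against 40219, 39823 and 38489, again without overlap and with an exact p of 0.1. The share and the sum without Neat1 and Malat1 were not among the planned tests.

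No lincRNA was called as different between the groups. With limma over the 21126 genes with a mean of at least 1, the members called at an adjusted p under 0.05 numbered 0, as did all genes (0.0%), and the smallest adjusted p was 0.9996 among members and 0.396 among all genes. At an unadjusted p under 0.05 there were 8 members of 239 (3.35%), 4 lower and 4 higher, against 4.01% of all genes tested (2.63% lower and 1.39% higher) and 3.86% of the genes with a mean of at least 20. By edgeR's quasi-likelihood test on the recovered reads, 0 members were called and 8 had an unadjusted p under 0.05. By DESeq2, 0 were called and 6 had an unadjusted p under 0.05. The 3 hearts of each group did not overlap in 21 members (8.79%), 9 lower and 12 higher, against 9.2% of all genes tested (5.3% lower and 3.9% higher) and 9.0% of those with a mean of at least 20. The members' shares are thus near those of all genes.

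Log2 fold changes of the members had a median of 0.02, against 0.00 over all genes tested, with 108 lower and 131 higher. Their 10th and 90th percentiles were −0.34 and 0.36, and 0 members had a difference of 1 or more on the log2 scale, against 805 of all genes tested and 58 of the 14184 with a mean of at least 20. The fold changes are on the log2(normalized count + 1) scale, which understates those of low members. Replicate hearts varied more in the members (median SD within groups 0.296 on the log2 scale) than in protein-coding genes of the same minimum mean (0.169). For means from 20 to under 50 the medians were 0.367 in members and 0.352 in protein-coding genes, and for means from 50 to under 100 the members varied less, at 0.237 against 0.271. For means from 100 up they were 0.248 in the 67 members and 0.154 in protein-coding genes.

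**Figure D3:**
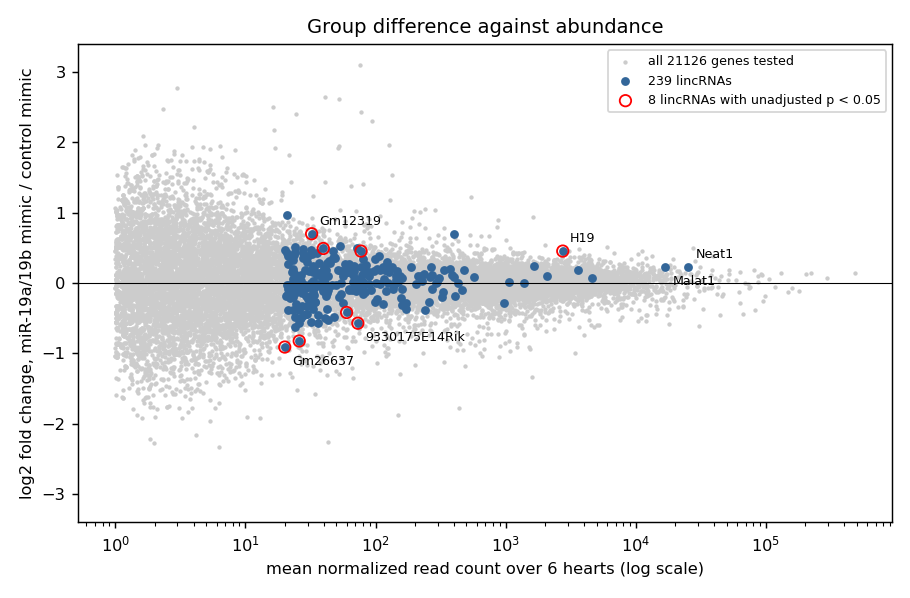
The horizontal axis is the mean normalized read count over 6 hearts (log scale) and the vertical axis the log2 fold change between the groups, with all 21126 tested genes in grey, the 239 lincRNAs in blue and red circles on the 8 with an unadjusted p under 0.05. The lincRNAs begin at the mean of 20 that chose them and stay between −0.91 in Gm26637 and 0.96 in Gm27028. Both of these entered the list only through the group in which they were higher, so the choice favoured a difference in them.

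Of the 8 lincRNAs with an unadjusted p under 0.05, all 4 lower ones had modest counts and no overlap between the groups. Gm26637 and Gm26797 entered the list only through the control mimic hearts, with means of 13.5 and 18.2 in the miR-19a/19b mimic hearts, so the choice of members favoured a difference in them and their p-values carry no weight. Without them, 2 lower and 4 higher members had an unadjusted p under 0.05. The counts of Gm26637 were 24.3, 34.2 and 21.5 with control mimic and 14, 13.4 and 13.0 with miR-19a/19b mimics (log2 fold change −0.91, SE 0.29). Every miR-19a/19b mimic heart lay below every control heart. Its exons overlap, on the other strand, those of Eif2ak2, which encodes the RNA-activated kinase PKR and is induced by interferon. Eif2ak2 itself had 939.5, 1132 and 993.1 with control mimic and 675.7, 782.5 and 776.3 with miR-19a/19b mimics, lower without overlap (log2 fold change −0.45, limma unadjusted p = 0.0031, adjusted p = 0.877). Exons of Sult6b1 overlap it as well, with counts between 6.5 and 17.6 in every heart. The sources used here do not say whether counting used the strand, so reads of Gm26637 and of Eif2ak2 cannot be told apart.

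9330175E14Rik also lies beside an interferon-induced gene on the other strand. It had 85.1, 82.0 and 94.4 with control mimic and 49.5, 53.6 and 74.3 with miR-19a/19b mimics (log2 fold change −0.57, SE 0.20, limma unadjusted p = 0.021). Nlrc5, which encodes an activator of MHC class I genes, starts within it on the other strand in GENCODE M21, while the span of Nlrc5 in the deposited table (chr8:94472763-94527272) begins beyond the end of the lincRNA (chr8:94422899-94435105). Nlrc5 had 667.6, 782.7 and 642.8 against 380.9, 531.0 and 609.4, also lower without overlap. Its order of the miR-19a/19b mimic hearts was that of the lincRNA, and its order of the control mimic hearts was the reverse. Nlrc5 and Sult6b1 lie outside the rule for named genes and were chosen after values were seen. Herpud1, the nearest protein-coding gene by the deposited positions, 27522 bases away, ran the other way, with 3337, 2267 and 3318 against 5714, 4834 and 2517. A list of 10 interferon response genes summed to between 14749 and 19430 in the control mimic hearts and between 7820 and 11549 in the miR-19a/19b mimic hearts, with 10 of 10 genes lower at an unadjusted p under 0.05 and 0 called, and its part in these results was not tested.

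The other lower members were Gm26797 and AI838599. Gm26797 had 24.3, 43.9 and 32.7 with control mimic and 15.1, 19.6 and 19.9 with miR-19a/19b mimics (log2 fold change −0.82, SE 0.30), and Ano10, its nearest protein-coding gene, had a log2 fold change of −0.02. AI838599 had 65.2, 66.4 and 74.7 against 51.6, 51.5 and 50.1 (log2 fold change −0.42, limma unadjusted p = 0.043). Its 3 miR-19a/19b mimic hearts lay close together, all below the control hearts. Its nearest protein-coding gene, Vmn1r3, was not among the genes tested.

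Among the 4 higher members, H19 was by far the most abundant. H19 is a maternally expressed imprinted RNA, the host of miR-675, that is abundant before birth and low in most adult tissues. It had 2196, 2155 and 2529 with control mimic (2293 ± 205, SD, n = 3) and 3265, 2367 and 3986 with miR-19a/19b mimics (3206 ± 811). The groups overlapped, because miR-19a/19b mimic replicate 2 lay below control mimic replicate 3 (log2 fold change 0.45, SE 0.18, limma unadjusted p = 0.032, adjusted p = 0.9996). Mrpl23, a mitochondrial ribosomal protein gene 34782 bases away, had 1069, 759.3 and 981.9 against 1151, 1343 and 1029.

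Gm8066, Gm28151 and Gm12319 were the other higher members. Gm8066 had 75.2, 54.7 and 66.3 with control mimic and 82.8, 91.8 and 93.4 with miR-19a/19b mimics, and Gm28151 had 34.3, 32.2 and 31.8 against 44.1, 42.3 and 53.6, both without overlap. Gm12319 had 34.3, 23.4 and 16.8 against 42.0, 44.3 and 32.8, where the highest control heart lay above the lowest miR-19a/19b mimic heart. Their log2 fold changes were 0.45, 0.49 and 0.70, with unadjusted p of 0.036, 0.047 and 0.046 from limma. Their nearest protein-coding genes differed little, with log2 fold changes of 0.08 in Gigyf1, 0.03 in Slc39a10 and 0.11 in Pfn1. On the same strand, Gm8066 lies 1047 bases from Gigyf1, Gm28151 overlaps the span of Slc39a10 and Gm12319 lies 97 bases from Pfn1. Pfn1 had counts of 14585 to 21260. Whether reads of these genes fell on the lincRNAs was not tested.

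**Figure D4:**
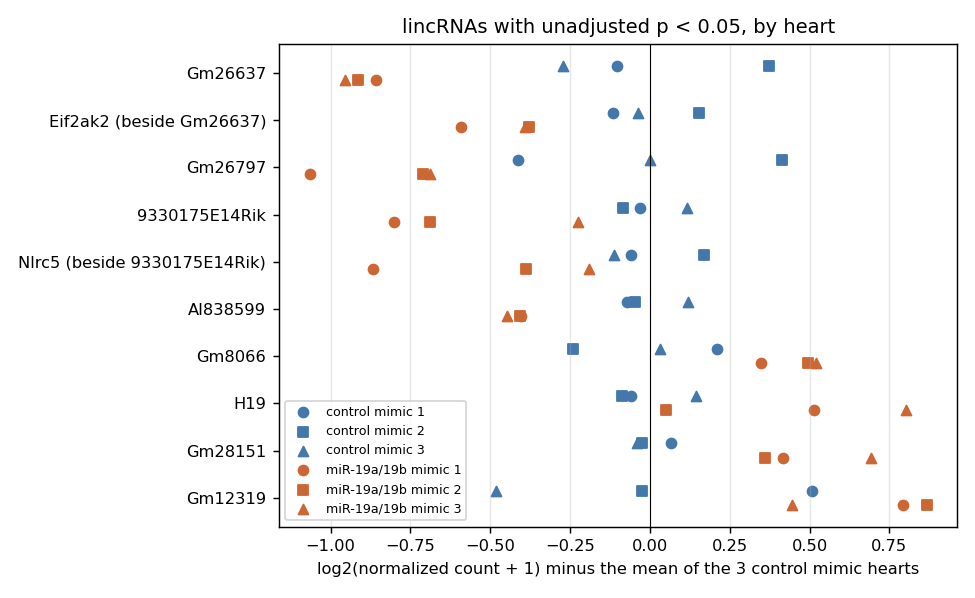
Each row is a lincRNA with an unadjusted p under 0.05, or a gene beside it on the other strand, and each point a heart, placed at its log2(normalized count + 1) minus the mean of the 3 control mimic hearts. Eif2ak2 and Nlrc5 lie on the same side as Gm26637 and 9330175E14Rik, and in H19 and Gm12319 the blue and orange points overlap.

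By what they are known for, the members fell into 7 lists, in which 0 were called. Of 5 members in the list of nuclear body and chromatin RNAs (Neat1, Malat1, Meg3, Ftx and Jpx), 0 had an unadjusted p under 0.05 and the median log2 fold change was 0.19. Ftx and Jpx, both of the X-inactivation centre, had log2 fold changes of −0.13 and −0.03 at counts of 64.0 to 90.7 and 20.6 to 37.6. The imprinted RNAs were Meg3, H19 and Mirg, all 3 above 0 with a median of 0.19, and H19 alone had an unadjusted p under 0.05. Mirg, which carries microRNAs of the Meg3 cluster, had 116.1, 76.1 and 137.3 with control mimic and 104.4, 99.0 and 175.5 with miR-19a/19b mimics, and its groups overlapped.

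The 5 microRNA hosts were H19, Mir17hg, Mirg, Mir142hg and Mir143hg, with 3 higher, 2 lower and H19 alone at an unadjusted p under 0.05. Mir142hg, the host of a microRNA of blood cells, had 37.6, 33.2 and 36.4 against 28.0, 29.9 and 38.0. Mir143hg, the host of smooth muscle microRNAs, had 24.3, 22.4 and 24.3 against 23.7, 11.3 and 37.2. In both, miR-19a/19b mimic replicate 3 was the highest heart. The 5 snoRNA hosts (Snhg6, Snhg12, Snhg18, Snhg20 and Epb41l4aos), which release snoRNAs from their introns, had log2 fold changes from −0.22 to 0.20 with 3 lower, 2 higher and 0 at an unadjusted p under 0.05.

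Of RNAs studied in heart muscle, Bvht, Gm12295 and Pvt1 were members. Bvht (Braveheart), known for its role in commitment to the cardiac lineage, had 250.9, 221.5 and 210.2 with control mimic and 277.6, 233.0 and 234.3 with miR-19a/19b mimics. Gm12295 had 228.8, 127.8 and 215.8 against 187.2, 166.0 and 95.1, and Pvt1, a neighbour of Myc, had 84.0, 92.7 and 62.6 against 69.9, 75.3 and 78.7. All 3 overlapped between the groups. The 2 members studied in macrophages and immune cells, AW112010 and Mirt1, were both lower on average, with log2 fold changes of −0.27 (SE 0.18) and −0.50 (SE 0.41) and a median of −0.38, the farthest from 0 of the 7 lists. AW112010 had 306.2, 277.2 and 251.3 against 202.3, 299.0 and 200.5. Mirt1, named for its response to MI, had 61.9, 41.0 and 35.5 against 17.2, 32.0 and 56.2, again with replicate 3 the highest of its group. 5430416O09Rik, like 1810058I24Rik and AW112010, has since been found to encode a short protein, and had 211.1, 141.5 and 168.2 against 216.3, 239.2 and 156.5. In these 3 lists 0 members had an unadjusted p under 0.05.

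MiR-19a/19b mimic replicate 3 stood apart from the rest of its group. Between it and replicates 1 and 2, counts over genes differed by a chi-square per degree of freedom of 123 and 110, against 9.49 to 24.4 for the other pairs within groups, and log2 values of the members correlated at 0.923 and 0.936, against 0.964 to 0.973. In 23 members (9.62%) it was the lowest of the 6 hearts while replicates 1 and 2 lay above every control heart, a pattern chosen after seeing the values, which 8.55% of all genes tested and 11.7% of those with a mean of at least 20 also showed. Neat1, 1700020I14Rik and Gm5532 were among these 23, and the mean of replicates 1 and 2 was between 1.46 and 4.27 times the value of replicate 3. The opposite pattern was present in 11 members (4.6%), AU020206, Gpr137b-ps and Mir142hg among them, in 4.44% of all genes tested and in 5.72% of those with a mean of at least 20.

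In 9 of 10 cardiomyocyte markers, miR-19a/19b mimic replicate 3 was the lowest heart and replicates 1 and 2 lay above every control heart. That pattern was picked after seeing the values, so the likeness to the lincRNAs chosen by it is only a description. The summed count of 10 markers (Myh6, Actc1, Tnnt2 and others) was 659545, 560275 and 741228 with control mimic and 1026070, 924854 and 344462 with miR-19a/19b mimics, and replicate 3 was the lowest heart in 10 of 10. None of the markers was at 0. The sums of neutrophil, fibroblast, macrophage and B cell markers were instead highest in miR-19a/19b mimic replicate 3. For neutrophils the sum was 3224 there and between 992 and 2416 elsewhere. Single genes were highest in that heart in 4 of 6 for neutrophils, 4 of 8 for fibroblasts, 3 of 8 for macrophages and 2 of 4 for B cells. Of the fibroblast genes 1 was lowest there. All 5 erythrocyte genes were lowest in it, as the cardiomyocyte markers were. For 8 skeletal muscle genes the sum was 2367 in replicate 1 of the miR-19a/19b mimic group, while the remaining hearts had 32.7 to 70.9. The part of these cells in the lincRNA values was not tested.

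**Figure D5:**
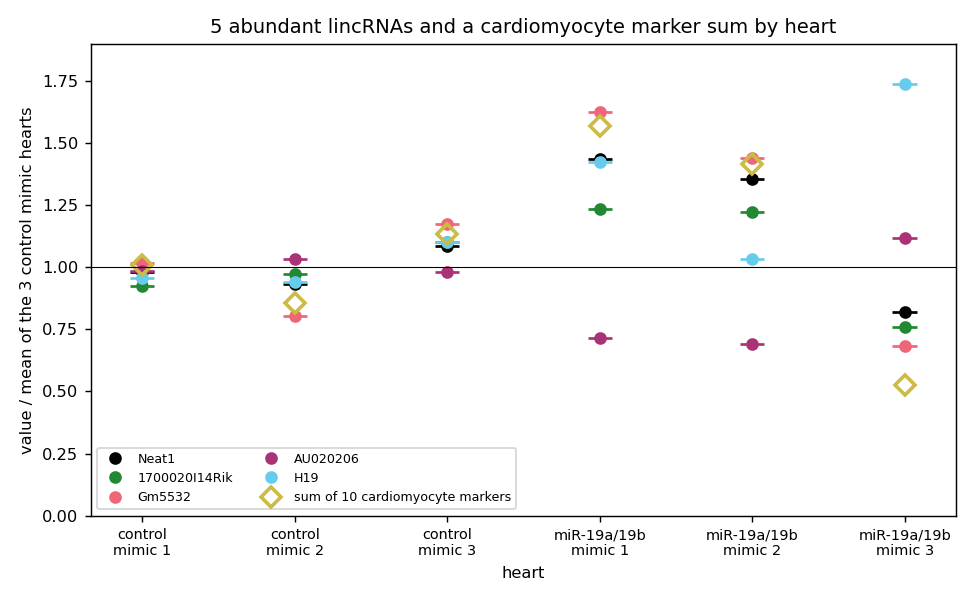
Normalized read counts of 5 abundant lincRNAs and the summed count of 10 cardiomyocyte markers (open diamonds) in each heart, divided by the mean of the 3 control mimic hearts. Neat1, 1700020I14Rik, Gm5532 and the marker sum are above 1 in miR-19a/19b mimic replicates 1 and 2 and below 1 in replicate 3, AU020206 runs the other way, and H19 is highest in replicate 3.

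Leaving out miR-19a/19b mimic replicate 3 changed the lincRNA results. Without it, limma called AU020206 as lower (log2 fold change −0.51, adjusted p = 0.022) and Gm5532 as higher (0.63, adjusted p = 0.042). These were 2 of 239 members, 0.837%, against 2.44% of all genes tested (0.729% lower and 1.71% higher) and 3.62% of those with a mean of at least 20. Members at an unadjusted p under 0.05 then numbered 8 lower and 26 higher (14.2%), against 14.5% of all genes tested (6.12% lower and 8.41% higher). Among genes with a mean of at least 20 the share was 18.9% (7.68% lower and 11.2% higher), above that of the members. Neat1 had a log2 fold change of 0.48 with an adjusted p of 0.090, 9330175E14Rik one of −0.74 with an adjusted p of 0.080, and H19 one of 0.28 with an adjusted p of 0.367. With 2 hearts left in that group, these values rest on those hearts.

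The members with the widest range over the hearts were Gm27028, Gm26795, 4930516B21Rik, Gm16793 and Gm5860, all with means under 60. Gm27028, whose exon overlaps Mir30c-2 on the same strand, had 9.9, 12.7 and 14.9 with control mimic and 20.4, 51.5 and 14.7 with miR-19a/19b mimics, so replicate 2 was far above the rest. Gm5860 had 39.8, 30.3 and 53.3 against 76.4, 96.9 and 25.9, Gm26795 had 22.1, 22.4 and 25.2 against 42.0, 39.2 and 9.5, and Gm16793 had 19.9, 15.6 and 19.6 against 36.6, 41.2 and 10.4. In these 3, miR-19a/19b mimic replicate 3 was the lowest heart and replicates 1 and 2 the highest. 4930516B21Rik had 36.5, 10.7 and 38.3 against 45.2, 28.9 and 32.0, with control mimic replicate 2 as the low heart. The counts of Gm27028 and Gm16793 with control mimic were all under 20. These members entered the list only through the miR-19a/19b mimic hearts, so the choice of members favoured a difference in them.

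The members lay on 21 chromosomes and had a median listed length of 2356 bases, from 269 in Mir142hg to 20771 in Neat1. In GENCODE M21, 230 of the 236 found are annotated as long noncoding and 4 as protein-coding (5430416O09Rik, 6030408B16Rik, 6330403K07Rik and D830044I16Rik). Another 2 are annotated as transcribed pseudogenes, Gpr137b-ps among them. The median number of exons was 3, and 30 members had 1 exon. Although typed as intergenic, 54 overlapped the span of a protein-coding gene, 145 lay within 5 kb of such a gene and 14 more than 100 kb away. The start of 60 members was within 1 kb of a protein-coding start on the opposite strand, the arrangement of a shared promoter. In the same annotation, exons of 85 members overlapped a gene on the other strand and those of 27 a gene on the same strand, while 132 overlapped no other gene. A stretch of at least 150 bases with 95% identity or more to another gene was present in 30.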

How the data were processed

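RNA-seq libraries of polyadenylated RNA from 6 hearts, 3 for each mimic, were analysed, grouped by the titles that the submitters gave them. RNAs without a poly(A) tail are captured poorly in such libraries. Per the labels, the authors used STAR 2.5.1b, HTSeq 0.6.0 and DESeq2 1.10.1, and the build given is mm9, but of 25884 genes found in GENCODE M21 all lie on the same chromosome of GRCm38 and 82.7% have the same start and end, so positions are given on GRCm38. The authors deposited a signal, the read count scaled by the library's size factor (0.905 to 1.16). Multiplied by that factor, 100% of the values came back as whole reads, within 0.01. The authors' own fold changes and p-values were not used, and 0 per-heart columns were left out.

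The groups were compared with limma 3.58.1 (R 4.3.3), with a variance trend, for the 21126 genes whose mean reached 1, after adding 1 to the normalized counts and taking log2. The plan had allowed for counts, and limma on log2 values was made the main test because the deposited values are normalized. P-values were adjusted over all these genes by the method of Benjamini and Hochberg, at a threshold of 0.05. Quasi-likelihood tests with edgeR 4.0.16 and DESeq2 1.42.0 on recovered reads, other scaling, filters, pseudocount and thresholds, a replicate block and each heart left out were alternatives. The members and lists were chosen with earlier results of these data known. Named genes were the 15 most abundant members, the 10 with the smallest p among those under 0.05 (8 qualified), the 5 with the widest range over hearts and every member in the lists of known roles. Tests were checked on simulated reads.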

Additional observations from a re-analysis of the deposited data

How the results depend on the processing

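The alternatives with all 6 hearts (edgeR, DESeq2, a pseudocount of 0.1, TMM scaling, no filter, at least 10 reads in every heart, a replicate block, a minimum mean of 10 or 100, and the 230 members annotated as long noncoding) each gave 0 calls among the members. Members at an unadjusted p under 0.05 numbered 4 lower and 4 higher with all hearts, and this moved by over 1.5 times under a replicate block (2 higher), with a mean of at least 10 (8 lower), and with a mean of at least 100 (0 lower and 1 higher, with a median log2 fold change of 0.076). Leaving out each heart in turn gave 2 to 8 lower and 0 to 26 higher. The smallest counts came without control mimic replicate 2 (2 lower, 0 higher) and the largest without miR-19a/19b mimic replicate 3. Without control mimic replicate 3 there were 2 lower and 1 higher, and without miR-19a/19b mimic replicates 1 and 2 there were 2 and 1 higher. Calls at an adjusted p under 0.05 ranged from 0 to 1 lower and from 0 to 1 higher. The numbers of the hearts mark no shared animal, and same-numbered hearts did not deviate together (correlations of −0.01, −0.21 and −0.34).

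Of 44 named lincRNAs, 30 kept their direction whichever heart was left out. The log2 fold changes of the other 14 crossed 0. They ran in 1700020I14Rik from −0.048 to 0.30, in Gm26917 from −0.14 to 0.33, 1810058I24Rik from −0.053 to 0.056, C330006A16Rik from −0.037 to 0.039, Gpr137b-ps from −0.24 to 0.13, Snhg18 from −0.068 to 0.19, Epb41l4aos from −0.24 to 0.18, and in Mirg from −0.069 to 0.37, Ftx from −0.24 to 0.0086, Pvt1 from −0.24 to 0.039, 4930516B21Rik from −0.10 to 0.77, Jpx from −0.22 to 0.18, Gm26795 from −0.24 to 0.78 and Mir143hg from −0.50 to 0.31. With all hearts, directions turned for Gpr137b-ps (0.029 with edgeR, 0.028 with DESeq2) and Mir143hg (0.041 and 0.035), and in no other named lincRNA. The summed count was recomputed with each heart left out after seeing the data and was higher with miR-19a/19b mimics each time. With 3 hearts a group, members near the mean of 20 rest on as few as 9 reads in a heart, and the median SE of the 123 with means from 20 to under 50 was 0.30 on the log2 scale.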
